A study of Rattus norvegicus with 3 samples.

Results

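Cyclins, cyclin-dependent kinases and the proteins that restrain them were examined in the RNA of rat blood platelets. The members were all genes of the authors' matrix whose platform symbol is that of a numbered cyclin-dependent kinase, begins with Cdkn1 or Cdkn2, or is Ccn followed by 1 letter and an optional number. This gave 46 of 15037 named genes, each with 1 array feature: 21 cyclins, 16 kinases and 9 genes whose names begin with Cdkn. The rule uses names alone, so it also takes in Cdkn2aip and Cdkn2aipnl, which are named for binding the product of Cdkn2a or for likeness to that binder and are not themselves kinase inhibitors.

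Platelets were taken from normal F344 rats, an inbred strain whose age and sex the labels do not give. There were 3 groups, labelled PLT for control platelets, SOR-PLT for those loaded with (encapsulating) sorafenib and LEN-PLT for those loaded with lenvatinib. Each group was hybridised to 1 array, and every array carried the pooled suspensions of 5 rats. Loading was done outside the body with 10 µg of drug for 30 minutes at 37 °C, followed by a wash, and whether the control platelets went through the same steps is not stated in the labels used here. Both drugs block several kinases, including the receptors of vascular endothelial growth factor. With 1 array per group there is no replicate, no error and no test, so every difference given here is between 2 single arrays. Drug and handling cannot be told apart, nor can fewer cells of a type and less RNA per cell.

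A cyclin is the regulatory partner of a cyclin-dependent kinase. D-type cyclins with Cdk4 or Cdk6 start the cycle by phosphorylating the retinoblastoma protein, E and A cyclins with Cdk2 carry DNA synthesis, and B cyclins with Cdk1 drive mitosis, while Cip/Kip and INK4 proteins hold these kinases back. A second branch of the family, including Cdk7, Cdk8, Cdk9 and Cdk12 with their cyclins, acts mainly on transcription by RNA polymerase II. Cdk7 serves both branches, since with cyclin H it also activates the cell cycle kinases. Platelets have no nucleus and do not divide, but megakaryocytes, their parent cells, pass through repeated rounds of DNA synthesis without cell division, and platelet RNA is inherited from them.

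Signals are log2 values as the authors deposited them, and a difference of 1 is 2-fold. The lowest deposited value was 2.24 and the highest, at which several features were saturated, was 19.93, which no member reached. The medians of the 3 arrays, taken over all features, lay between 4.21 and 4.22. Background was taken as the 95th percentile of 1153 negative control features, 7.69, which 13% of all named genes reached in their mean over the 3 arrays. Of 11 measured platelet marker genes, 10 lay at or above it, Selp being the exception. None of 10 T cell or 5 B cell markers did, and 1 of 9 neutrophil markers did, S100a9. Among 7 monocyte markers, Lyz2 and Ccr2 did. Of 10 erythroid markers 6 did, all but Ahsp, Epb42, Klf1 and Tfrc, and the log2 signals of the 10 summed to 97.60 in control, 97.99 with sorafenib and 100.93 with lenvatinib. Levels of different genes come from different probes. They were set beside 1 common background level, and their order was not read as relative transcript amounts.

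Of the 46 members, 13 had a mean signal at or above background, or 28.3%, and 33 did not. The 13 were Ccnd3, Cdkn2d, Cdkn2aip, Ccnc, Ccnk, Cdk8, Cdk12, Cdk13, Cdk19, Ccny, Cdk16, Ccng1 and Ccni. By role, to be read beside the 13% of all named genes and without a test, the counts were as follows. Transcription cyclins and kinases had 6 of 11 members at or above background, cyclin Y with its kinases and other kinases 2 of 8, and the remaining cyclins 2 of 5. D-type cyclins with their kinases had 1 of 5, INK4 inhibitors 1 of 4, E, A and B cyclins with their kinases 0 of 8, and Cip/Kip inhibitors 0 of 3. Of the pair matched by name alone, 1 of 2 did. Some roles were measured in part: 11 of 15 listed transcription genes, 8 of 10 E, A and B cyclins with their kinases. The same holds for cyclin Y with its kinases and other kinases, 8 of 10, and for the remaining cyclins, 5 of 8. At sizes of 8 and 3, a count of 0 does not set a role apart from the array as a whole. The member nearest above the level was Cdk13, with a mean of 8.23, and the nearest below was Cdk6, with a mean of 6.85. The negative controls spread widely: at their 99th percentile, 13.05, only Ccnd3, Cdk19 and Ccni still lay above, against 3.74% of all named genes. A signal below background does not show that a transcript was absent.

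**Figure D1:**
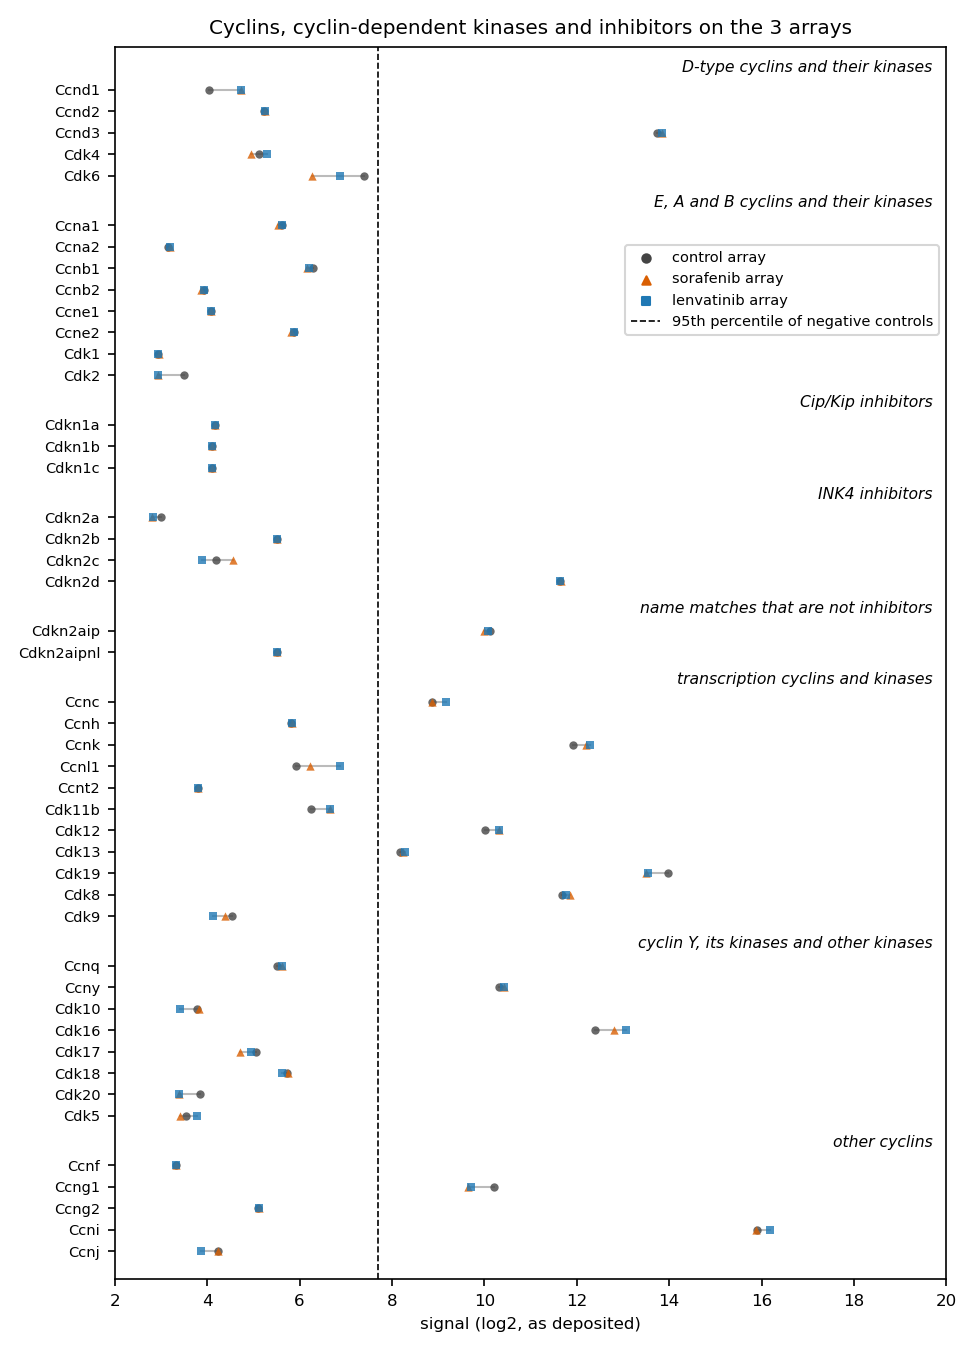
Each row is 1 of the 46 members, grouped by role, and the horizontal axis is the deposited log2 signal on the control (circle), sorafenib (triangle) and lenvatinib (square) arrays, with a dashed line at the background level of 7.69. All E, A and B cyclins with their kinases lie left of the line, as do all Cip/Kip inhibitors, while 6 of 11 transcription members lie right of it.

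Among D-type cyclins, which couple growth signals to the start of the cycle, Ccnd3 was the member measured above background. Ccnd3 read 13.74 in control and 13.84 in both drug arrays. Of the 1961 named genes at or above background, 49.6% differed from control by at least as much with sorafenib and 53.2% with lenvatinib, so the Ccnd3 difference of 0.10 was an ordinary one. Ccnd1, below background, had a signal of 4.05 in control, 4.72 with sorafenib and 4.73 with lenvatinib, differences of 0.67 and 0.68. Both drug arrays thus read above control for Ccnd1, at signals below background and against the same control array. Among named genes below background, 2.94% were as far from control with sorafenib and 2.93% with lenvatinib. Ccnd2 read 5.23, 5.26 and 5.26 in the same order, with nearly equal values.

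Their kinase partners lay below background. Cdk4 had a signal of 5.13 in control, 4.95 with sorafenib and 5.30 with lenvatinib. Control lay between the drug arrays. Cdk6 read 7.39, 6.28 and 6.87, so that control was highest and sorafenib lowest. Its sorafenib signal was 46.3% of control, a difference of -1.11, and its lenvatinib signal was 69.9%, a difference of -0.52. Cdk6 was the 1 member of 46 at least 2-fold apart in any comparison, and it was lower with sorafenib. Over all named genes, 0.299% were at least 2-fold lower with sorafenib, and 0.512% were 2-fold apart in either direction. With 46 members, 1 gene is the smallest count above 0, and the Cdk6 signal lay below background on every array. That status rests on the percentile chosen. The Cdk6 mean of 6.85 lay above the negative controls' 90th percentile, 6.49, though its sorafenib signal of 6.28 did not.

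E, A and B cyclins with Cdk1 and Cdk2 are the engine of DNA synthesis and mitosis, and none of the 8 measured reached background. Their means ran from 2.94 for Cdk1 to 6.22 for Ccnb1. Cdk1, the mitotic kinase, had a signal of 2.93 in control, 2.96 with sorafenib and 2.93 with lenvatinib. Ccnb1, its B-type partner, read 6.29, 6.17 and 6.20, and Ccnb2 read 3.94, 3.87 and 3.94. The 3 arrays were close for each of these genes. Ccna2, the cyclin of DNA synthesis in body cells, read 3.16, 3.19 and 3.19, and Ccna1, its germ cell relative, 5.62, 5.53 and 5.62. Ccne1 read 4.09 on all 3 arrays, and Ccne2 read 5.88, 5.82 and 5.88. Both drive entry into DNA synthesis with Cdk2. Cdk2 was the member of this role furthest from control, at 3.50 in control and 2.94 in both drug arrays, differences of -0.56 and -0.57. It lay far below background on every array.

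The promoters of Cdk1 and Ccnb2 are shown because they stand for the members that were below background in platelets and are tied to dividing cells, and those of Ccnd3, Ccnk and Cdk12 because these members were measured above background. Genes switched on late in the cycle often carry CCAAT boxes next to a cell cycle homology region, a short element written TTTGAA or TTTAAA. Each sequence runs 5′ to 3′ from 250 bases before to 50 bases after the gene's start, from RefSeq on build GRCr8. Capitals mark CCAAT and TTTGAA or TTTAAA on either strand, so ATTGG and TTCAAA also count. No marked motif overlaps another here. These genes were picked after their values were seen.
Cdk1, chr20:19265043-19265342, plus strand: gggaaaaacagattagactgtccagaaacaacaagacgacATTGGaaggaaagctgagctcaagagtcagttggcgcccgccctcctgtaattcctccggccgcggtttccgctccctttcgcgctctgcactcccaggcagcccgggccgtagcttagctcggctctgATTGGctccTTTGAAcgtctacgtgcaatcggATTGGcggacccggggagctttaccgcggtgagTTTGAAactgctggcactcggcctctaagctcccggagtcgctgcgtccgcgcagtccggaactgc
Ccnb2, chr8:79981609-79981908, minus strand: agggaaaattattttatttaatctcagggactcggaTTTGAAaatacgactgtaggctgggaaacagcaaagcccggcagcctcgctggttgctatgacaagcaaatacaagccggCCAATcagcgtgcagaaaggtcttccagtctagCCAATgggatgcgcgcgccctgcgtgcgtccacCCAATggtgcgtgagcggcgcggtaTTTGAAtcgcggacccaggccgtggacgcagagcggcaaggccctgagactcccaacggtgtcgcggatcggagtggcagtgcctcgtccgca
Ccnd3, chr9:20897826-20898125, minus strand: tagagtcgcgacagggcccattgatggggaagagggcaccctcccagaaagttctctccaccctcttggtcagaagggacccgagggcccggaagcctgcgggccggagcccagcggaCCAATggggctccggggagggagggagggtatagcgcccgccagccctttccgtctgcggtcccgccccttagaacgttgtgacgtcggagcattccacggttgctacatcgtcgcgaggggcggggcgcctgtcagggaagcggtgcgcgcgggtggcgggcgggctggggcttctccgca
Ccnk, chr6:132854732-132855031, plus strand: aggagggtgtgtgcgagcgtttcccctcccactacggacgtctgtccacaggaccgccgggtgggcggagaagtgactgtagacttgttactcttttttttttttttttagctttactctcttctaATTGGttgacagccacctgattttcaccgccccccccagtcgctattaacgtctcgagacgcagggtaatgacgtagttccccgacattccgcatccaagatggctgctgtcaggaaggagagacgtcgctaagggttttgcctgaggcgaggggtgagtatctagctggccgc
Cdk12, chr10:83697785-83698084, plus strand: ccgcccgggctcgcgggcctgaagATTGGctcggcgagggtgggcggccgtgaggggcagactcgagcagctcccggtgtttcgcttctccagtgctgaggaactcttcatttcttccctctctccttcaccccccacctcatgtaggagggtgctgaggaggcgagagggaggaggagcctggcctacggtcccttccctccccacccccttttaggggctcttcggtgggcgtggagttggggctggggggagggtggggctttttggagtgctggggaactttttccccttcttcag

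The Cdk1 window holds 3 CCAAT boxes and 2 matches to the cell cycle homology letters, and so does that of Ccnb2. Those of Ccnd3, Ccnk and Cdk12 each hold 1 CCAAT box and 0 of the other, which is not so for all members at or above background. The cell cycle homology letters were found in 3 of 13 windows of those members, in Ccni, Cdk8 and Cdk16, and in 10 of 27 windows of members below background. A CCAAT box was found in 6 of 13 and in 13 of 27. Windows were counted singly, and several of these 13 windows of members below background belong to Cdk10. RefSeq promoters were matched for 37 of the 46 members, giving 40 windows of 300 bases. Both motifs together were found in 3 of 6 windows of E, A and B cyclins with their kinases, those of Ccnb1, Ccnb2 and Cdk1, and in 0 of 9 windows of transcription members. Among members at or above background they were found in 1 of 13 windows, that of Cdk16, and among members below it in 6 of 27. Over all 33469 promoters of the table, 37.5% held a CCAAT box, 28.3% the cell cycle homology letters and 11.3% both. These are matches of letters and carry no evidence of binding.

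The inhibitors lay below background with 1 exception. Cdkn2d, an INK4 protein that binds Cdk4 and Cdk6, had a signal of 11.64 in control, 11.66 with sorafenib and 11.63 with lenvatinib. The 3 values were close together, and 72.6% of genes at or above background differed from control by at least as much with sorafenib. The identifier of its feature carries the word Unmapped. Cdkn2c, of the same family, read 4.19, 4.57 and 3.88, so that control lay between the drug arrays and the drugs were 0.68 apart. Cdkn2b read 5.52 on all 3 arrays, and Cdkn2a read 2.99 in control and 2.82 in both drug arrays. The Cip/Kip inhibitors, which act on several of the cycle kinases, gave no difference at all: Cdkn1a read 4.17 on every array, Cdkn1b read 4.10 and Cdkn1c read 4.11. Exact ties of this kind were common, since 17.3% of all named genes had 1 value on all 3 arrays, so a tie is no measure of an equal transcript level. Of the 46 members, 8 had 1 value on all arrays. The binding protein Cdkn2aip read 10.13, 9.99 and 10.08, and Cdkn2aipnl read 5.52 throughout.

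The transcription branch held 6 of the 13 members measured above background, more than any other role. It was also the largest role, with 11 measured members, and 13% of all named genes reached background. At the negative controls' 99th percentile, Cdk19 alone of these 6 remained. Cyclin C with Cdk8 or Cdk19 forms the kinase part of Mediator, the complex that links transcription factors to RNA polymerase II. Ccnc had a signal of 8.87 in control, 8.87 with sorafenib and 9.18 with lenvatinib, so that lenvatinib stood above the other 2 arrays by 0.31. Control and sorafenib were exactly tied, which is no measure of an equal transcript level. With lenvatinib, 20.1% of genes at or above background differed from control by at least as much. Cdk8 read 11.67, 11.85 and 11.77, with control lowest. Cdk19, its close relative, read 13.98, 13.49 and 13.54, with control highest. The Cdk19 signal was 71.0% of control with sorafenib and 73.4% with lenvatinib. Differences of that size or more were seen in 6.07% and 10.9% of genes at or above background. Between the drug arrays Cdk19 differed by 0.05.

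Cyclin K with Cdk12 or Cdk13 phosphorylates RNA polymerase II during elongation. Ccnk had a signal of 11.92 in control, 12.20 with sorafenib and 12.28 with lenvatinib. Cdk12 read 10.02, 10.32 and 10.32. For the cyclin and for this kinase, control was the lowest array, by 0.28 and 0.36 for Ccnk and by 0.30 and 0.31 for Cdk12. Among genes at or above background, 20.2% differed from control by at least as much as Ccnk with sorafenib and 15.5% with lenvatinib. For Cdk12 these shares were 17.2% and 20.6%, so neither gene stood outside the bulk. Cdk13 read 8.18, 8.23 and 8.28, with differences of 0.05 and 0.10.

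The other transcription members lay below background. Ccnl1, a cyclin of splicing speckles that pairs with Cdk11 kinases, had a signal of 5.92 in control, 6.23 with sorafenib and 6.88 with lenvatinib. Its lenvatinib difference, 0.96, was the largest of any member in that comparison and fell just short of 2-fold. Among named genes below background, 0.704% were as far from control. Cdk11b read 6.24 in control and 6.66 in both drug arrays. Cdk9, the elongation kinase, read 4.55, 4.39 and 4.12, and Ccnt2, a cyclin partner of it, read 3.80 on all 3 arrays. Ccnh, the partner of Cdk7, read 5.83 on each, while Cdk7 itself was not among the measured genes. The Ccnh differences of 0.01 changed sign when the arrays were centred on their medians, and for lenvatinib also under quantile normalization.

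Cyclin Y and its kinases act at the cell membrane and in traffic. Ccny read 10.31 in control and 10.43 in both drug arrays. Cdk16, a kinase that cyclin Y activates, had a signal of 12.39 in control, 12.80 with sorafenib and 13.08 with lenvatinib, so that control was lowest and lenvatinib highest. The Cdk16 signal was 132% of control with sorafenib and 160% with lenvatinib. At or above background, 10.6% of genes differed from control by at least as much with sorafenib and 3.16% with lenvatinib. Cdk16 was the 1 member at or above background to differ from control by 1.5-fold or more, and it did so with lenvatinib. Of all named genes at or above background, 5.71% did so with that drug. Most erythroid markers read higher in the same array: 7 of 10 were above control with lenvatinib and 1 below, against 4 above and 4 below with sorafenib. The largest lenvatinib rises were those of Epb42 (1.11), Ahsp (0.93) and Slc4a1 (0.85), and Epb42 and Ahsp lay below background. Hba-a1 was saturated on every array and could not move, and Hbb rose by 0.05. The part of erythroid RNA in the Cdk16, Ccnc and Ccni readings was not tested.

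The remaining kinases were below background. Cdk17 read 5.06, 4.72 and 4.95, and Cdk18 read 5.72, 5.75 and 5.61, both relatives of Cdk16. Cdk5, a kinase best known from neurons, read 3.55, 3.42 and 3.78. Cdk10 read 3.79, 3.82 and 3.41, and its cyclin partner Ccnq read 5.52 in control and 5.62 in both drug arrays. Cdk20 had a signal of 3.85 in control, 3.40 with sorafenib and 3.38 with lenvatinib. None of these 6 genes differed by 1.5-fold between any 2 arrays.

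Of the cyclins without a settled kinase partner, 2 were measured above background. Ccng1, a target of p53, had a signal of 10.22 in control, 9.64 with sorafenib and 9.71 with lenvatinib. Control was the highest of the 3 arrays, and the drug arrays were close together. The Ccng1 signal was 67.3% of control with sorafenib, where 4.13% of genes at or above background were as far from control, and 70.5% with lenvatinib, where 8.21% were. Ccni read 15.91, 15.88 and 16.18, with lenvatinib 0.31 above sorafenib. Ccng2, a relative of Ccng1, read 5.10 in control and 5.13 in both drug arrays. Ccnf, a substrate receptor of a ubiquitin ligase, read 3.32 throughout, and Ccnj read 4.23, 4.23 and 3.87.

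**Figure D2:**
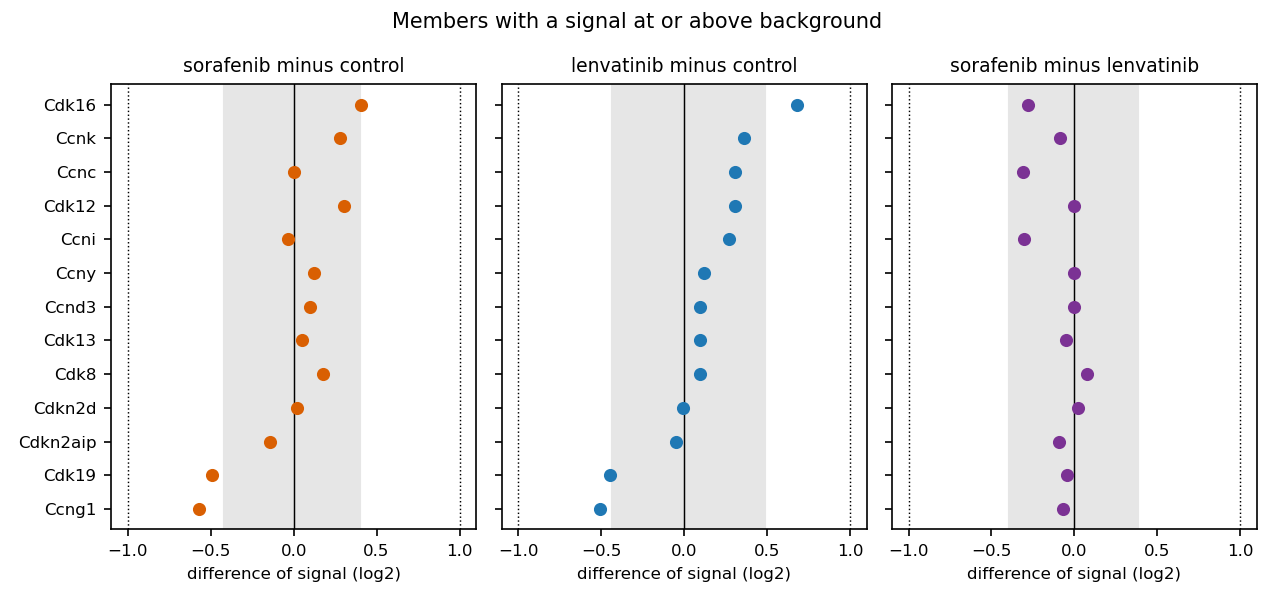
The 13 members at or above background are shown by their log2 difference of signal in each of the 3 comparisons (1 point per gene, single arrays, no error bars). The grey band spans the 5th to 95th percentile of the 1961 named genes at or above background. Ccng1 and Cdk19 lie left of the band in both drug comparisons, Cdk16 lies right of it, by a narrow margin with sorafenib, and no member reaches the dotted 2-fold lines.

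For sorafenib against control, 20 of the 46 members were above control, 16 below and 10 equal to it, and their median difference was 0. Over all named genes 34.9% were above, 34.5% below and 30.5% equal, and the median was 0 as well. Differences of members ran from -1.11 for Cdk6 to 0.67 for Ccnd1. Those 2 genes were also the members at least 1.5-fold apart, 4.35% of the members against 4.43% of all named genes. The member share was thus close to that of the whole array.

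For lenvatinib against control, 19 members were above control, 15 below and 12 equal to it. Over all named genes 35.4% were above control, 35.1% below and 29.5% equal. The median was 0 for the members and for all named genes. None was at least 2-fold apart, where 0.539% of all named genes were. At 1.5-fold there were 3, Ccnd1, Ccnl1 and Cdk16, all higher with lenvatinib. They make up 6.52% of the members, against 5.05% of all named genes. The lowest difference was that of Cdk2, -0.57. Both drug comparisons use the same control array.

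The drug arrays, matched in drug mass and loading time, had the same value for 16 of the 46 members, as they did for 32.1% of all named genes. Sorafenib read higher for 10 members (21.7%) and lower for 20 (43.5%), and the median difference was 0. Over all named genes 33.4% were higher with sorafenib and 34.6% lower. None was at least 2-fold apart, against 0.299% of all named genes. Cdkn2c was higher with sorafenib by at least 1.5-fold, and Ccnl1 and Cdk6 were lower, at -0.65 and -0.60. These 3 genes make up 6.52% of the members, against 3.89% of all named genes, and all lay below background. Of the 13 members at or above background, those furthest apart were Ccnc and Ccni, each at -0.31, and Cdk16 at -0.28.

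**Figure D3:**
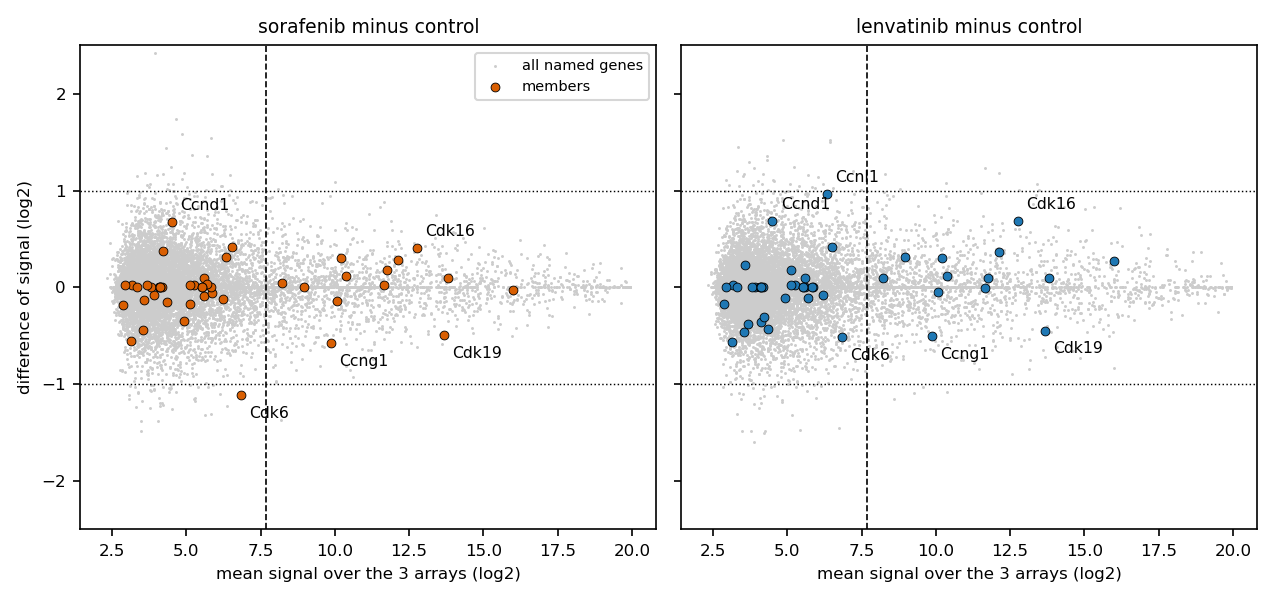
Each point is a named gene, with its mean log2 signal over the 3 arrays on the horizontal axis and its log2 difference from control on the vertical axis, for sorafenib and for lenvatinib. Members are outlined, the dashed line marks background at 7.69 and the dotted lines 2-fold. Cdk6 is the only member past a dotted line, with sorafenib, and lies left of the dashed line, as does Ccnl1, which comes nearest with lenvatinib.

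Over 4 lists of other cell cycle genes, 9 of 85 measured genes, or 10.6%, lay at or above background, near the 13% of all named genes. Of 28 measured regulators of these kinases, 5 lay at or above background, or 17.9%. Cdc25b, a phosphatase that activates the kinases, read 8.32, 8.33 and 8.69, with lenvatinib highest. Skp1 and Cul1, shared parts of a ubiquitin ligase that degrades cyclins and inhibitors, read 12.39, 12.18 and 11.91 and 15.78, 15.40 and 15.45. Both were highest in control. Rbx1, the ring subunit of that ligase, read 10.24, 10.01 and 10.29, and Cdk2ap1, a binder of Cdk2, read 10.24 in control and 10.33 in both drug arrays. Cdk5rap2, a centrosomal protein below background, was the 1 regulator at least 2-fold apart, at 5.53, 4.56 and 4.36. Its lenvatinib difference was -1.17, and 0.259% of all named genes were at least 2-fold lower with that drug.

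Another list held pocket proteins, the family of the retinoblastoma protein, with E2F factors and partners. Of its 13 measured genes, 3 lay at or above background, or 23.1%, and 0 were 2-fold apart. Rb1, the gene of the retinoblastoma protein, was not among those measured. Rbl2, a relative of the retinoblastoma protein, read 7.94 in control and 7.98 in both drug arrays, and E2f6, a repressor, read 7.61, 7.58 and 7.89, at the level of background. Lin54, a DNA-binding subunit of the complex that represses cycle genes, read 10.01, 10.05 and 10.05. Of 25 DNA replication genes, 1 lay at or above background: Orc4, of the origin recognition complex, read 11.09 on all 3 arrays. Of 19 mitosis genes, 0 did, and in both lists 0 were 2-fold apart. The median differences of the 4 lists ran from 0 to 0.04 with sorafenib and from -0.05 to 0.04 with lenvatinib, against 0 over all named genes.

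**Figure D4:**
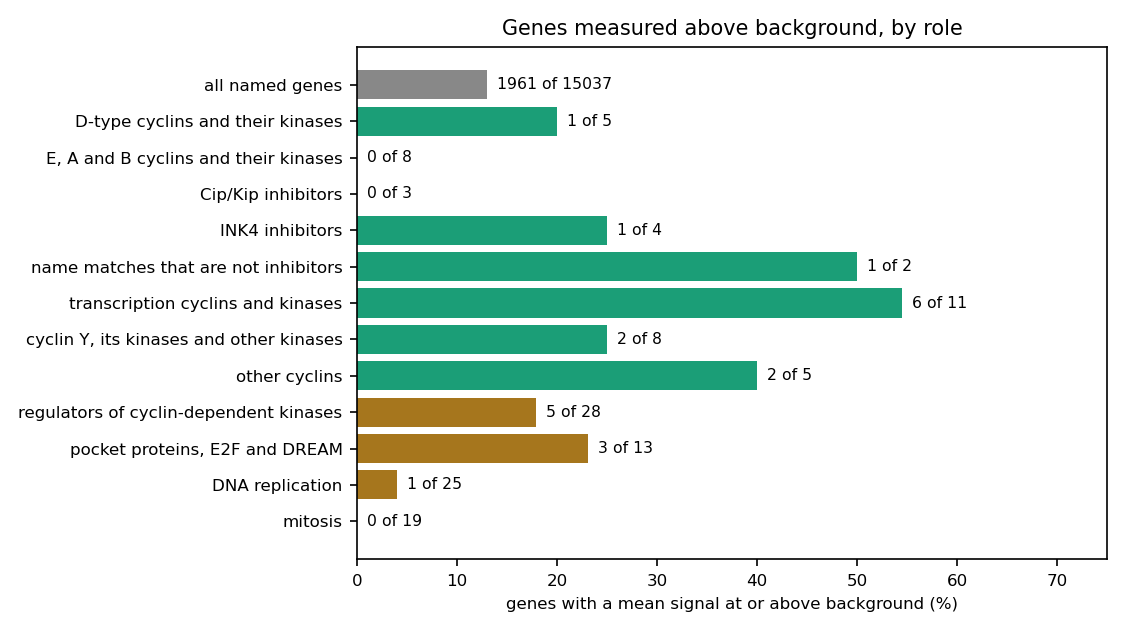
Bars give the percentage of measured genes whose mean log2 signal reached background (7.69), for all named genes (grey), the members by role (green) and other cell cycle lists (brown), with counts beside each bar. Transcription members stand at 6 of 11, while E, A and B cyclins with their kinases stand at 0 of 8 and mitosis genes at 0 of 19, against 13% of all named genes.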

How the data were processed

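Total RNA of 3 platelet pools was measured on 3 arrays, 1 per group, after column extraction and a biotin label, per the labels' protocols. The authors deposited log2 signals for 23188 features. Background correction, probe summary and normalization are not given in the sources used here, nor is the array's name. The series value table, also deposited as log2 values, matched the matrix within 5e-05 and added the negative controls.

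Symbols came from the platform annotation, which gave 1 symbol to 15049 features, several to 0 and none to 8139. All 15049 gene IDs were found in RefSeq (GRCr8), which changed 0 symbols. For each gene the feature of highest mean was kept. No low-signal filter was set, so that every member is counted, and a gene was counted as apart at an absolute log2 difference of 1. Probe sequences were not used here, so detection of close relatives such as Cdk8 and Cdk19 by each other's features cannot be told apart.

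Members at or above background, 2-fold apart or furthest from 0 in their role were open to full description, and all others were given beside them. Pathway genes were named where at or above background or 2-fold apart. The members and lists were chosen with earlier results of these data known. Alternatives were filters, median centring, quantile normalization, feature means, the series table, other thresholds and other background percentiles. Calculations used Python 3.11.15 with pandas 2.3.3. Their arithmetic was checked on simulated arrays with planted shifts, which does not measure how reliable differences on these arrays are. The number of arrays limits the precision.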

Additional observations from a re-analysis of the deposited data

How the results depend on the processing

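No paired analysis was possible because each group has 1 array. The count of members 2-fold apart with sorafenib against control was 1 as reported, 0 over members at or above background, 2 at a 1.5-fold threshold and 0 at 3-fold. With lenvatinib against control, and between the drugs, it was 0, and 3 at 1.5-fold in each. The median difference of members was 0 in all 3 comparisons. Over members at or above background it was 0.0475 with sorafenib, 0.10 with lenvatinib and -0.0504 between the drugs. The counts at 1.5-fold and 3-fold follow from the threshold itself. Of the 13 members at or above background, 9 were above control with lenvatinib and 4 below, or 69.2% and 30.8%. Over all named genes at or above background these shares were 41.2% and 39.2%. With sorafenib, 8 of the 13 were above control and 4 below, or 61.5% and 30.8%, against 39.8% and 38.9%. Between the drugs, 2 of the 13 were higher with sorafenib and 9 lower, or 15.4% and 69.2%, against 34.4% and 42.8%. The median of all named genes at or above background was 0 in all 3 comparisons. Why the medians moved was not tested. Members at or above background numbered 13, and 15 and 3 at the negative controls' 90th and 99th percentiles. The shares of all named genes at these cuts were 13%, 18.5% and 3.74%. Cdk6 and Cdk11b lay between the 90th and 95th percentiles. Under median centring and quantile normalization the counts of members 2-fold apart did not move, and the Cdk6 difference with sorafenib kept its sign. Feature means and the series table could move nothing, since each member has 1 feature and the tables match. The difference between the drugs for Cdk12, -0.0029, became 0.0070 with quantile normalization. Median centring shifted each comparison by a constant, at most -0.0071 (lenvatinib against control), and so could move no difference by 0.05. Under quantile normalization, 2 of 42 differences of the 14 members above background or 2-fold apart moved by 0.05 or more, to 0.33 for Ccni with lenvatinib and -0.03 for Ccnk between the drugs. Depth is not defined for these arrays. Signal over background limits what can be read for 33 of the 46 members.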
